A study of Mus musculus with 8 samples.

Results

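Kainate receptors are ion channels gated by glutamate. Their subunits GluK1, GluK2 and GluK3, encoded by Grik1, Grik2 and Grik3, can form channels by themselves, whereas GluK4 and GluK5, encoded by Grik4 and Grik5, bind glutamate tightly and need one of the first set to make a working channel. In the hippocampus kainate receptors are best known from the synapses that mossy fibres of dentate granule cells make on CA3 pyramidal cells, and on interneurons. Grid1 encodes the delta receptor GluD1, a synaptic organiser that binds secreted cerebellins, which in turn bind neurexins on the opposite membrane. The 6 genes Grik1, Grik2, Grik3, Grik4, Grik5 and Grid1 were taken by symbol, and all 6 were found among the 32285 genes counted in every library.

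Single-nucleus RNA was counted in C57BL/6JN mice aged 3 or 21 months, from the anterior hippocampus and from the caudate putamen, the dorsal part of the striatum. No transgene or drug is named in the labels. Each of the 4 groups (region and age) had 2 libraries, and each library pooled nuclei of 1 male and 1 female, so sexes and animals within a library were not separated here. Nothing in the labels ties a replicate number to an animal or a day, and p-values measure the spread between these libraries only.

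The libraries held 67205436 to 234811422 unique molecular identifiers (UMIs, each standing for 1 captured RNA molecule), and 6387 to 17012 nuclei per library were kept, 97740 in all. The median nucleus of a library held 6664 to 11275 UMIs. Any pair of libraries shared at most 0.674% of the barcodes of the smaller one. Nuclei were clustered in each region with the 6 receptor genes and 22 partner genes left out, and clusters were named from lists of marker genes. A name with the ending "-like" rests on those markers. The markers separated the classes well for most names, with Drd2 at 616 CPM (counts scaled to a fixed total per class and library) in D2 medium spiny neuron-like nuclei against 21.7 over the other named nuclei together, but the D1 name rested on weaker contrasts for Tac1 (83.4 against 48.4 CPM) and Eya1 (19.6 against 15.7 CPM). In each region 11 classes had at least 20 nuclei in every library and were tested.

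The members fall into 3 sequence groups. A stretch of the coding sequence at the end of the third membrane segment, which lines the channel gate, is shown for each gene because all 6 genes can be lined up there without gaps. Capitals mark the 27 bases that encode the conserved motif, each stretch lies in 1 exon, and sequences and positions are from GRCm38 (mm10), read 5′ to 3′ on the strand of the gene. Each line gives 57 bases.
Grik1: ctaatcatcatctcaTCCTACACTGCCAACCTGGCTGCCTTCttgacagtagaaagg
Grik2: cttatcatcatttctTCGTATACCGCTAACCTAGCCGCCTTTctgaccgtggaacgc
Grik3: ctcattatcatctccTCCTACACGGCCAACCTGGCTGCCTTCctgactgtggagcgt
Grik4: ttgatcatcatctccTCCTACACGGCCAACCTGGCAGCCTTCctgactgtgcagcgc
Grik5: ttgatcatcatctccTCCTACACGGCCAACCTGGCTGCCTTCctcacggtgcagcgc
Grid1: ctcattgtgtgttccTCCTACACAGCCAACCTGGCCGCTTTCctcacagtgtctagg
Grik1 lay at chr16:87935994-87936050 on the minus strand (exon 14), Grik2 at chr10:49240675-49240731 on the minus strand (exon 14) and Grik3 at chr4:125694027-125694083 on the plus strand (exon 13). Grik4 lay at chr9:42543854-42543910 on the minus strand (exon 17), Grik5 at chr7:25015904-25015960 on the minus strand (exon 16) and Grid1 at chr14:35452326-35452382 on the plus strand (exon 12). Within these stretches Grik4 and Grik5 differed at 3 bases, and Grik2 and Grid1 differed at 21. Over the whole coding sequence Grik1, Grik2 and Grik3 were 71.3% to 72.5% identical to each other, and Grik4 was 72.4% identical to Grik5. Identity between those groups was 57.6% to 61.7%, and Grid1 shared 55.9% to 58.5% with the other 5 genes. Over all annotated transcripts of each gene, which include untranslated bases, the longest run of identical bases between any pair was 61 (Grik3 and Grid1).

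The genes are long, which bears on counts from nuclei, where much of the RNA is unspliced. In the GENCODE vM21 annotation the gene span was 394366 bases for Grik1, 693934 for Grik2, 223474 for Grik3, 426359 for Grik4, 62498 for Grik5 and 763272 for Grid1. Grik2 overlapped 6 genes on its own strand, 2 of which (Gm26543 and Gm47018) were counted separately. Levels below are CPM of the summed nuclei of a class in a library, as mean ± SD over the 4 libraries of a region at both ages, and differences between genes are given per kilobase of gene span. CPM were scaled to total counts only, whereas the edgeR fits also used TMM scaling factors. A log2 difference between classes can therefore depart from the ratio of their CPM. Fewer cells of a subtype and less RNA per cell cannot be told apart in such sums.

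**Figure D1:**
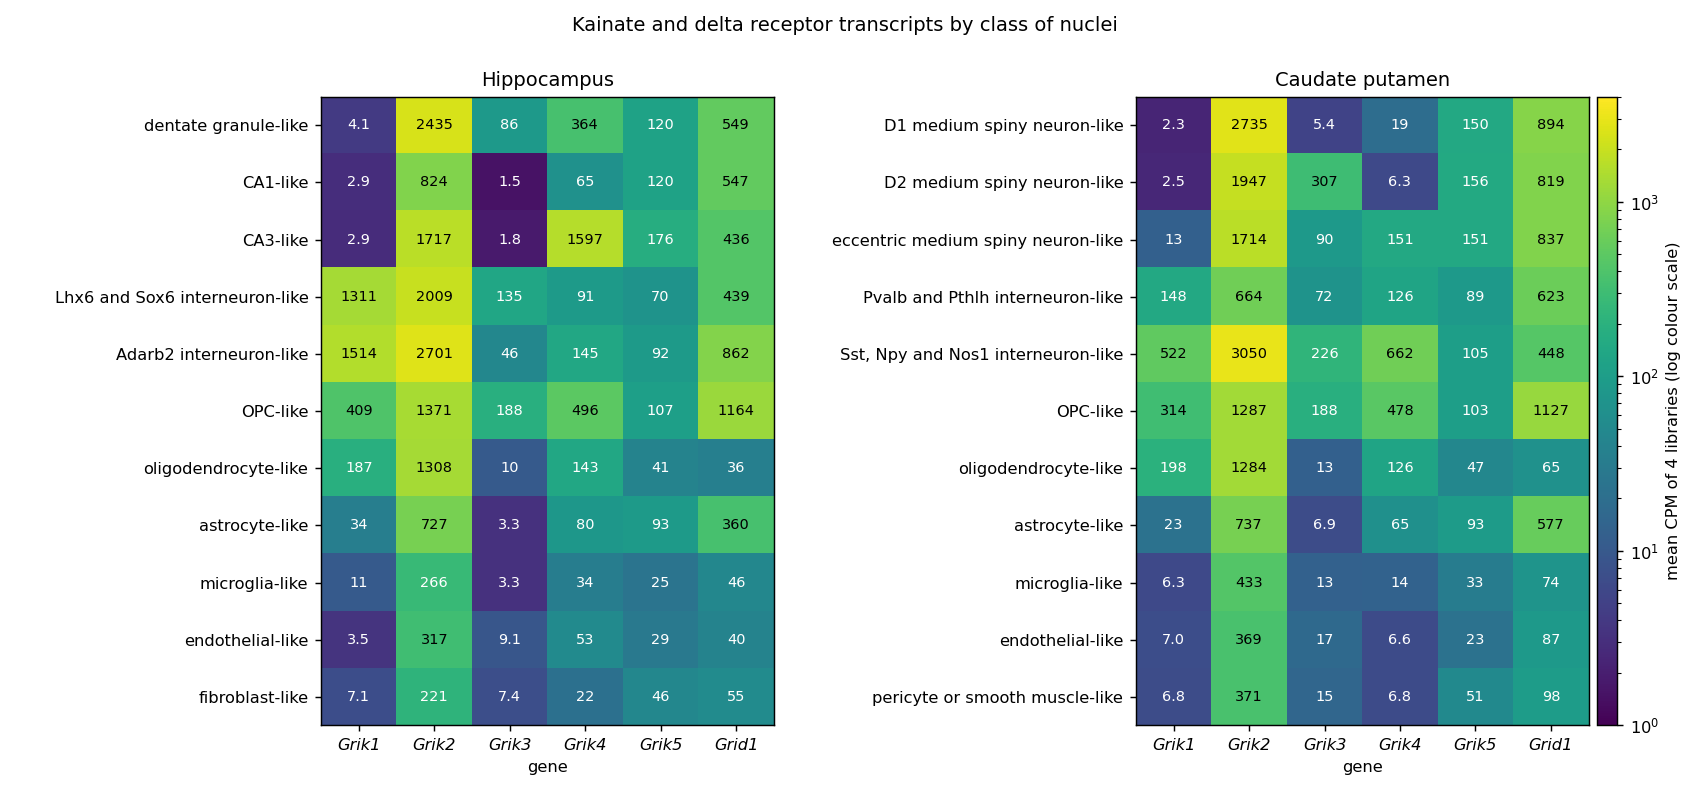
Mean CPM of each of the 6 genes (columns) in the 11 tested classes of nuclei (rows) of the hippocampus (left) and the caudate putamen (right), over 4 libraries per region, on a log colour scale with the value printed in each cell. Grik2 was at 221 CPM or more in every class, Grik1 was high in interneuron-like and oligodendrocyte lineage classes, and Grik4 was highest in CA3-like nuclei.

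Classes were compared within each region in 1 edgeR quasi-likelihood fit with the library as a block, each class against the mean of the other 10. The classes were built from other genes of the same nuclei, so these p-values describe how stable a level was over libraries and are no separate proof of the classes. In the hippocampus 58 of the 66 combinations of gene and class passed an adjusted p under 0.05 (30 higher and 28 lower), where 53.6% of all gene and class combinations passed. Of the 66 in the caudate putamen 64 passed (34 higher and 30 lower) against a background of 52.8%. All 6 genes were higher in oligodendrocyte precursor cell (OPC)-like nuclei than the mean of the other classes, in the hippocampus (38.5% of all genes passed in either direction and 23% were higher) and the caudate putamen (40.5% and 24.8%). Microglia-like nuclei held less of all 6 in the hippocampus (53% of all genes passed in either direction and 28.2% were lower) and the caudate putamen (57.7% and 26%). Sst, Npy and Nos1 interneuron-like nuclei of the caudate putamen held more of all 6 (41.2% of all genes passed in either direction and 23.6% were higher).

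Grik1, the subunit known from interneurons, was a gene of interneurons and the oligodendrocyte lineage here. In Adarb2 interneuron-like nuclei of the hippocampus it was at 1491 and 1549 CPM at 3 months and 1496 and 1519 CPM at 21 months. In Lhx6 and Sox6 interneuron-like nuclei it was at 1371 and 1360 CPM at 3 months and 1520 and 994 CPM at 21 months. These classes overlapped and were not told apart (log2 difference 0.15, SE 0.16, adjusted p = 0.690, edgeR). Hippocampal principal neurons were near the floor, with means of 4.10 CPM in dentate granule-like, 2.95 in CA1-like and 2.88 in CA3-like nuclei. OPC-like nuclei followed the interneurons at 409 ± 54.2 CPM (SD, n = 4) and oligodendrocyte-like nuclei at 187 ± 17.7 CPM. Both steps were larger than the spread, with a log2 difference of 1.83 (SE 0.17) from Lhx6 and Sox6 interneuron-like to OPC-like nuclei and of 1.12 (SE 0.17) from there to oligodendrocyte-like nuclei.

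The order of Grik1 in the caudate putamen was led by Sst, Npy and Nos1 interneuron-like nuclei at 522 ± 43.7 CPM. OPC-like nuclei were at 314 ± 34.1 CPM, oligodendrocyte-like at 198 ± 36.1 and Pvalb and Pthlh interneuron-like at 148 ± 25.5. Each of these 4 neighbours in the order differed from the next by the test, although oligodendrocyte-like and Pvalb and Pthlh interneuron-like libraries overlapped. The oligodendrocyte-like class was uneven for Grik1. Its cluster 0 was at 116, 92.3, 158 and 125 CPM in the libraries at 3 and then 21 months, and its cluster 11 at 481, 483, 386 and 234 CPM. Cluster 11 held 25.4%, 24.4%, 18.8% and 14.4% of the class. The clusters were not tested against OPC-like nuclei. D1 and D2 medium spiny neuron-like nuclei, the projection neurons of the striatum, were at 2.33 ± 0.324 and 2.48 ± 0.498 CPM. Cholinergic interneuron-like nuclei, with 19 nuclei in the smallest library and therefore not tested, were at 119, 171, 204 and 135 CPM in the libraries at 3 and then 21 months.

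Grik2 had class means of 221 to 3050 CPM. In the hippocampus Adarb2 interneuron-like nuclei were at 2701 ± 251 CPM, dentate granule-like at 2435 ± 249, Lhx6 and Sox6 interneuron-like at 2009 ± 236 and CA3-like at 1717 ± 176. No neighbouring pair among these 4 classes differed by the test. CA1-like nuclei held less, at 824 ± 24.3 CPM, which was a log2 difference of -1.10 (SE 0.20, adjusted p = 1.2e-05, edgeR) from CA3-like nuclei. In the caudate putamen Sst, Npy and Nos1 interneuron-like nuclei (3050 ± 83.3 CPM) and D1 medium spiny neuron-like nuclei (2735 ± 275 CPM) were not told apart (adjusted p = 0.313, edgeR). Pvalb and Pthlh interneuron-like nuclei were at 664 ± 53.4 CPM, below OPC-like (1287 ± 112) and oligodendrocyte-like nuclei (1284 ± 62.7). Microglia-like nuclei, used here as the background of free RNA, held 266 ± 150 CPM in the hippocampus and 433 ± 78.4 CPM in the caudate putamen, and 20.3% to 38.2% and 44.1% to 59.0% of them per library had a Grik2 UMI after thinning to 2000 UMIs (29.1% to 50.5% and 54.2% to 68.0% before). The thinned shares of endothelial-like nuclei (23.1% to 35.4% and 35.7% to 60.7%) overlapped these, so Grik2 in vascular and microglia-like nuclei is not read as expression.

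Grik3 separated the main neurons of the striatum. In D2 medium spiny neuron-like nuclei it was at 267 and 257 CPM at 3 months and 318 and 388 CPM at 21 months. In D1 medium spiny neuron-like nuclei it was at 4.89 and 4.48 CPM at 3 months and 4.16 and 7.88 CPM at 21 months. The libraries of these classes were far apart, with a log2 difference (D1 minus D2) of -5.87 (SE 0.14, adjusted p = 2.9e-29, edgeR). Of the 6 genes 3 differed between D1 and D2 medium spiny neuron-like nuclei, against 9.62% of all genes. The others were Grik4 and Grik2, the latter higher in D1 by 0.46 (SE 0.13, adjusted p = 0.0148, edgeR), a call lost without any 1 of 3 libraries (caudate putamen 21 months replicate 1 or 2, or 3 months replicate 1). Grik1, Grik5 and Grid1 differed by at most 0.10 on the log2 scale, each within the spread.

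Within the hippocampus Grik3 had its highest mean in OPC-like nuclei, at 188 ± 8.62 CPM, though not told apart from Lhx6 and Sox6 interneuron-like nuclei (adjusted p = 0.137, edgeR). OPC-like nuclei of the caudate putamen were at 188 ± 38.7 CPM. Oligodendrocyte-like nuclei held 10.5 ± 2.38 and 12.8 ± 2.76 CPM in the hippocampus and the caudate putamen, a log2 difference from OPC-like nuclei of 4.12 (SE 0.22) and 3.81 (SE 0.16). In the hippocampus Grik3 divided the granule cells from the pyramidal cells, with 86.0 ± 2.52 CPM in dentate granule-like nuclei against 1.52 ± 0.839 in CA1-like and 1.82 ± 1.44 in CA3-like nuclei. The Lhx6 and Sox6 interneuron-like libraries were uneven for Grik3, at 183 and 115 CPM at 3 months and 63.9 and 179 CPM at 21 months. Sst, Npy and Nos1 interneuron-like nuclei of the caudate putamen were at 226 ± 33.1 CPM and eccentric medium spiny neuron-like nuclei at 90.0 ± 16.2 CPM.

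Grik4 was the gene of CA3. CA3-like nuclei held 1543 and 1642 CPM at 3 months and 1706 and 1497 CPM at 21 months. CA1-like nuclei held 66.5 and 106 CPM at 3 months and 45.1 and 44.0 CPM at 21 months. The groups did not overlap, and the log2 difference (CA1 minus CA3) was -4.64 (SE 0.26, adjusted p = 2.7e-17, edgeR). Of the 6 genes 3 differed between CA1-like and CA3-like nuclei, all lower in CA1-like nuclei, against 32.1% of all genes, the others being Grik2 and Grik5. Dentate granule-like nuclei, whose mossy fibres end on CA3, held 364 ± 39.2 CPM of Grik4, a log2 difference of 2.25 below CA3-like nuclei (SE 0.23, adjusted p = 1.6e-10, edgeR).

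OPC-like nuclei held 496 ± 29.2 CPM of Grik4 in the hippocampus and 478 ± 42.9 CPM in the caudate putamen. Sst, Npy and Nos1 interneuron-like nuclei were the highest class of the caudate putamen at 662 ± 46.1 CPM, although their log2 difference from OPC-like nuclei did not pass the test (0.47, SE 0.24, adjusted p = 0.132, edgeR). D1 and D2 medium spiny neuron-like nuclei were low, whereas eccentric medium spiny neuron-like nuclei were above the mean of the other classes (log2 difference 2.05, SE 0.23, adjusted p = 3.2e-09, edgeR). D1 medium spiny neuron-like nuclei were at 28.0 and 7.95 CPM at 3 months and 31.1 and 10.5 CPM at 21 months, so the libraries numbered 1 were high and those numbered 2 low at both ages. D2 medium spiny neuron-like nuclei were at 8.07 and 2.90 CPM at 3 months and 9.52 and 4.87 CPM at 21 months, with the same split. The log2 difference of D1 minus D2 was 1.57 (SE 0.25, adjusted p = 2.4e-05, edgeR). Microglia-like nuclei of the caudate putamen, the background of free RNA, were at 5.14 to 19.9 CPM, and 2.09% of them had a Grik4 UMI after thinning (2.97% before) against 1.17% of D2 (5.92% before) and 3.59% of D1 medium spiny neuron-like nuclei (15.5% before). By CPM, Grik4 in D2 medium spiny neuron-like nuclei was below the microglia-like level of the same library in each of the 4 libraries. The D1 libraries numbered 2 lay within the microglia-like range. The D2 share was below the microglia-like share after thinning but above it before, and the classes differ in depth. The comparison therefore cannot tell whether the D2 level is background, and the size of the D1 minus D2 difference rests on that level. Among the D1 clusters, cluster 6 was at 40.2, 13.4, 44.0 and 10.4 CPM in the libraries at 3 and then 21 months, and cluster 4 was at 3.34, 2.21, 2.77 and 2.61 CPM. Cluster 5 was at 29.0, 11.1, 35.3 and 15.96 CPM and cluster 15 at 19.1, 11.0, 23.6 and 7.37 CPM. Cluster 6 held 50.1% and 48.2% of the D1 medium spiny neuron-like nuclei in the libraries numbered 1 (3 and then 21 months) and 17.1% and 12.2% in those numbered 2. The share of cluster 5 went the other way, with 11.9% and 10.6% in the libraries numbered 1 and 20.4% and 43.0% in those numbered 2. The split between the libraries was also present within clusters 5, 6 and 15, and the part of this makeup in the D1 level was not tested.

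Grik5 varied least of the 6 genes. Its means ran from 22.7 to 176 CPM over the 22 class and region combinations, whereas those of Grik1 ran from 2.33 to 1514 CPM. CA3-like nuclei led in the hippocampus at 176 ± 4.46 CPM, above dentate granule-like nuclei at 120 ± 7.69 CPM (log2 difference 0.66, SE 0.11, adjusted p = 2.2e-06, edgeR). CA1-like nuclei were at 120 ± 10.9 CPM and not told apart from dentate granule-like nuclei. In the caudate putamen D2, eccentric and D1 medium spiny neuron-like nuclei were at 156 ± 7.77, 151 ± 7.20 and 150 ± 7.59 CPM. Oligodendrocyte-like nuclei were low in both regions, at 41.5 ± 3.85 and 47.1 ± 3.70 CPM.

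Grid1 had its highest mean CPM in OPC-like nuclei in both regions. The next class was not told apart from them by the test. The log2 difference (OPC minus next) was 0.34 from Adarb2 interneuron-like nuclei in the hippocampus (SE 0.18, adjusted p = 0.119, edgeR). It was 0.0035 from D1 medium spiny neuron-like nuclei in the caudate putamen (SE 0.15, adjusted p = 0.988, edgeR). The CPM of the libraries did not overlap in either. In the caudate putamen OPC-like nuclei thus led in CPM (1127 ± 72.5 against 894 ± 38.8 in D1) but not in the fit with its TMM scaling. OPC-like libraries of the hippocampus were at 1171 and 1183 CPM at 3 months and 1139 and 1164 CPM at 21 months. Those of the caudate putamen were at 1040 and 1132 CPM at 3 months and 1120 and 1217 CPM at 21 months. Oligodendrocyte-like nuclei, the next stage of the lineage, held 36.4 ± 12.1 and 65.5 ± 13.1 CPM. The log2 difference between OPC-like and oligodendrocyte-like nuclei was 5.02 (SE 0.21) in the hippocampus and 4.06 (SE 0.17) in the caudate putamen. Over whole classes 5 of the 6 genes were higher in OPC-like than in oligodendrocyte-like nuclei in both regions. Of all genes 47.3% passed in either direction and 24.4% were higher in the hippocampus, and 52.2% and 25.4% in the caudate putamen. Grik2 was the exception among the 6, with a log2 difference of 0.07 (SE 0.20) and -0.05 (SE 0.14). Among hippocampal neurons Grid1 was at 862 ± 61.9 CPM in Adarb2 interneuron-like, 549 ± 58.5 in dentate granule-like and 547 ± 9.60 in CA1-like nuclei. D1, eccentric and D2 medium spiny neuron-like nuclei were at 894 ± 38.8, 837 ± 36.3 and 819 ± 31.7 CPM, and no neighbouring pair of these differed by the test.

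Per kilobase of gene span, the mix of the 5 kainate receptor genes differed from class to class. Grik2 made up 61.5% of their summed CPM per kilobase in D1 medium spiny neuron-like nuclei and 52.5% in dentate granule-like nuclei. In CA3-like nuclei Grik4 led with 41.4%, and in Lhx6 and Sox6 interneuron-like nuclei Grik1 led with 40.8%. Grik3 reached 20.5% in D2 medium spiny neuron-like nuclei. In CA1-like nuclei Grik5, the shortest gene, led with 58.6%. That lead depended on the length used, since per kilobase of exon Grik5 fell to 23.9% and Grik2 led with 64.1%, while the leads of Grik4 in CA3-like (62.0%) and Grik1 in Lhx6 and Sox6 interneuron-like nuclei (49.9%) held. These shares are descriptions of 4 libraries per region with no test.

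**Figure D2:**
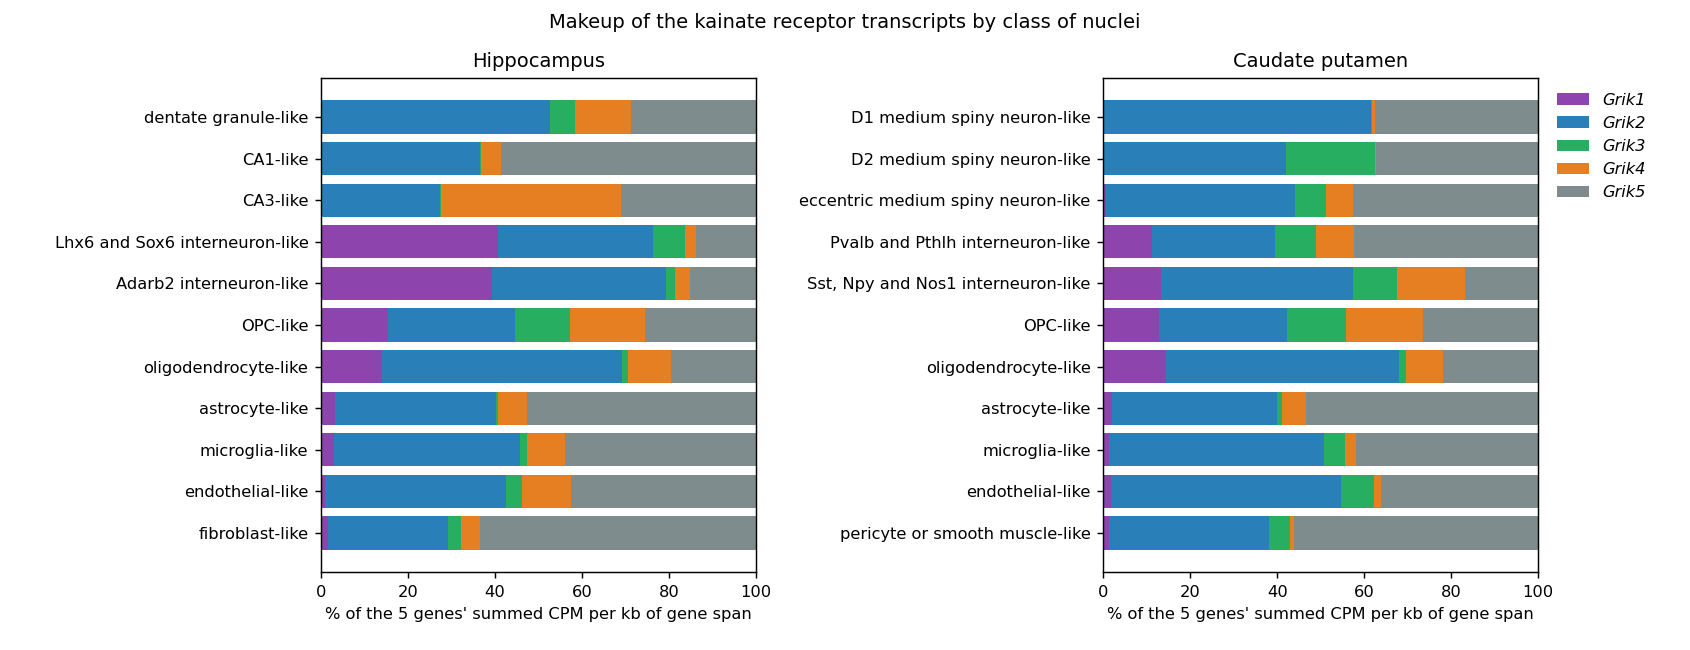
Share of each kainate receptor gene in the summed CPM per kilobase of gene span of the 5 Grik genes (x axis, percent) by class of nuclei (rows), hippocampus left and caudate putamen right, from the mean of 4 libraries. Grik4 takes 41.4% in CA3-like nuclei, Grik1 takes 40.8% in Lhx6 and Sox6 interneuron-like nuclei, and Grik3 takes 20.5% in D2 but 0.373% in D1 medium spiny neuron-like nuclei.

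The share of nuclei with a UMI gave the same picture once each nucleus was thinned to 2000 UMIs, with shallower nuclei left out. Grik4 was found in 96.2% of thinned CA3-like nuclei (mean of 4 libraries, 99.7% before thinning) and in 9.69% of CA1-like nuclei (44.9% before). The share for Grik4 in microglia-like nuclei, which served as the background of free RNA, was 4.66% in the hippocampus (6.94% before). Median depth was 22423 to 26214 UMIs in CA3-like and 2425.5 to 2792 UMIs in microglia-like nuclei, and thinning left out 1 CA3-like, 4 CA1-like and 201 hippocampal microglia-like nuclei. Grik3 was found in 43.9% of D2 medium spiny neuron-like nuclei (92.0% before) and 1.00% of D1 medium spiny neuron-like nuclei (5.12% before), and the latter was below the 2.49% of microglia-like nuclei of the caudate putamen (3.32% before). Here thinning left out 7 D2, 15 D1 and 513 microglia-like nuclei, and median depth was 8970 to 14322, 9786 to 15748 and 2015 to 2875 UMIs. Grik1 was found in 73.7% of Lhx6 and Sox6 interneuron-like nuclei (93.7% before) and in 0.868% of dentate granule-like nuclei (4.42% before), against 2.41% in microglia-like nuclei (3.04% before). Grik1 in dentate granule-like and Grik3 in D1 medium spiny neuron-like nuclei were thus below the microglia-like share after thinning but above it before. Microglia-like nuclei were much shallower, so this comparison cannot tell whether these low levels are background.

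Partner genes set the receptors in context. Neto1 and Neto2 encode auxiliary subunits of kainate receptors, C1ql2 and C1ql3 encode secreted ligands that mossy fibres use to hold kainate receptors at CA3 synapses, and Cbln and Nrxn genes encode the cerebellins and neurexins that pair with delta receptors. Over the 22 partners 148 of 198 class comparisons passed the test in the hippocampus (53.6% over all genes) and 147 of 198 in the caudate putamen (52.8% over all genes). Neto1 was highest in CA3-like nuclei in the hippocampus (719 CPM) and in eccentric medium spiny neuron-like nuclei in the caudate putamen (721 CPM). Neto2 was highest in CA3-like nuclei (130.5 CPM) and, in the caudate putamen, in D2 medium spiny neuron-like nuclei (370.5 CPM), the classes with the highest Grik4 in the hippocampus and the highest Grik3 in the caudate putamen. C1ql3 was highest in dentate granule-like nuclei (233 CPM) in the hippocampus and in OPC-like nuclei (18.3 CPM) in the caudate putamen. C1ql2 had its highest tested mean in fibroblast-like nuclei of the hippocampus (25.4 CPM), but microglia-like (24.6 CPM) and oligodendrocyte-like nuclei (22.9 CPM) were at about that level, so this is not read as expression by a class.

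Cerebellin transcripts were scarce, with a highest class mean of 9.0 CPM (Cbln2, Adarb2 interneuron-like) in the hippocampus and 6.4 CPM (Cbln4, Sst, Npy and Nos1 interneuron-like) in the caudate putamen. Cbln1 and Cbln3 stayed at or below 0.5 CPM. Among neurexins Nrxn2 was highest in OPC-like nuclei (652 and 644 CPM in the hippocampus and the caudate putamen). Nrxn3 was highest in Adarb2 interneuron-like (14043 CPM) and eccentric medium spiny neuron-like nuclei (11650 CPM).

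Among scaffold genes Grip1 was highest in Adarb2 interneuron-like nuclei (7522 CPM) and Pvalb and Pthlh interneuron-like nuclei (8843 CPM), and Grip2 in Lhx6 and Sox6 interneuron-like (70.5 CPM) and Pvalb and Pthlh interneuron-like nuclei (48.1 CPM). Pick1 also had its highest means in those classes, at 34.7 and 40.3 CPM. In the hippocampus this lead was small, with oligodendrocyte-like nuclei at 32.7 ± 2.93 CPM (29.5 to 36.6) and astrocyte-like nuclei at 31.7 ± 1.34 CPM. Dlg1 was highest in oligodendrocyte-like nuclei (726 and 687 CPM) and Cask in OPC-like nuclei (782 and 715 CPM). Dlg4 was highest in CA1-like (153 CPM) and D2 medium spiny neuron-like nuclei (147 CPM), and Gopc in microglia-like (59.9 CPM) and endothelial-like nuclei (68.4 CPM). The leads of Gopc lay within the spread, with 58.2 ± 13.9 CPM in endothelial-like nuclei of the hippocampus and 64.1 ± 10.8 CPM in microglia-like nuclei of the caudate putamen. The RNA editing enzymes, which recode kainate receptor transcripts, were highest in Lhx6 and Sox6 interneuron-like (108 CPM) and Sst, Npy and Nos1 interneuron-like nuclei (129 CPM) for Adar and in CA3-like (167 CPM) and eccentric medium spiny neuron-like nuclei (146 CPM) for Adarb1.

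Across the 22 class and region means, the level of each receptor was compared with that of 14651 genes by Pearson r of log2(CPM + 1). Regions share classes and the 11 classes of a region share libraries, so r is a description. The most similar genes were 6330411D24Rik (0.86), Gm42695 (0.85) and Aldh1l2 (0.85) for Grik1, and Jakmip2 (0.92), Dock3 (0.91) and Akap6 (0.90) for Grik2. They were Ftl1-ps1 (0.85), Gm13052 (0.79) and Lrrtm3 (0.78) for Grik3, and Aff2 (0.83), 4932413F04Rik (0.82) and Ephb2 (0.82) for Grik4. They were Gria2 (0.92), Macrod2 (0.91) and Cadm2 (0.90) for Grik5, and Astn1 (0.95), Ntrk2 (0.93) and Rgs7 (0.93) for Grid1. A pseudogene named Ftl2-ps, which was not counted, lies within Grik3 on the same strand. Whether it bears on the likeness of Grik3 to Ftl1-ps1 was not tested. Among the members the closest pair was Grik5 and Grid1 (r = 0.88) and the least similar was Grik1 and Grik5 (r = 0.04).

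Few of these genes changed with age. In hippocampal neuron-like classes 1 of 29 tests of a member passed (background 1.46%), with Grik3 in CA3-like nuclei too low to test. In caudate putamen neuron-like classes none of 30 passed by edgeR without a replicate block (background 1.59%), and DESeq2 called 1. An unadjusted p under 0.05 was reached by 5 of these 30 (10809 of 69515 tests over all genes). In glial and vascular classes 1 of 27 passed in the hippocampus (background 0.641%) and 1 of 27 in the caudate putamen (background 0.592%), where Grik1 and Grik3 in endothelial-like and Grik3 in microglia-like nuclei were too low to test. Both of these were Grik4 in oligodendrocyte-like nuclei. No other change of a member with age passed in the glial fits. In these fits 4 of 27 in the hippocampus had an unadjusted p under 0.05 (7139 of 57566 over all genes). In the caudate putamen 7 of 27 did (5958 of 57566 over all genes). The matching count in hippocampal neuron-like classes was 6 of 29 (7011 of 65237 over all genes).

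In oligodendrocyte-like nuclei of the hippocampus Grik4 was at 111 and 119 CPM at 3 months and at 180 and 164 CPM at 21 months. In the caudate putamen it was at 104 and 86.2 CPM at 3 months and at 160 and 155 CPM at 21 months. Both old libraries lay above both young ones in each region. The log2 change from 3 to 21 months was 0.64 in the hippocampus (SE 0.10, adjusted p = 0.0180, edgeR; 0.991% of all genes passed in this class) and 0.78 in the caudate putamen (SE 0.10, adjusted p = 0.00296; 1.38% of all genes passed). The share of oligodendrocyte-like nuclei with a Grik4 UMI after thinning was 17.9% and 19.9% at 3 months and 27.1% and 25.2% at 21 months in the hippocampus, and 16.9% and 15.5% against 24.9% and 23.5% in the caudate putamen. Before thinning these shares were 24.9% and 28.2% against 39.1% and 36.3%, and 24.5% and 24.8% against 33.1% and 28.1%.

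The change in the hippocampus rested on few libraries. Its adjusted p was 0.228 without hippocampus 21 months replicate 1, 0.0904 without hippocampus 21 months replicate 2 and 0.0773 without hippocampus 3 months replicate 2, with log2 changes for Grik4 of 0.56 to 0.70. In the caudate putamen the call was lost without caudate putamen 3 months replicate 2 (0.66, adjusted p = 0.0794, edgeR). Within single oligodendrocyte-like clusters of the caudate putamen the Grik4 change was 0.74 (cluster 0, adjusted p = 0.0121, where 290 of 14231 genes passed) and 0.91 (cluster 11, adjusted p = 0.00109, where 122 of 11700 genes passed), in comparisons added after the data were seen.

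Markers of other classes were looked at in the same oligodendrocyte-like nuclei. Mean Grik4 was higher than in these in OPC-like nuclei of both regions, in CA3-like and dentate granule-like nuclei of the hippocampus and in Sst, Npy and Nos1 interneuron-like and eccentric medium spiny neuron-like nuclei of the caudate putamen, and lower in astrocyte-like nuclei. The summed OPC markers (5 genes, none at 0 in every library) were at 56.7 and 58.4 CPM at 3 months and 42.6 and 47.7 CPM at 21 months in the hippocampus, and at 65.1 and 65.7 against 61.8 and 88.1 CPM in the caudate putamen. The summed CA3 markers (5 genes, none at 0 in every library) were at 43.5 and 62.0 against 36.6 and 42.8 CPM in the hippocampus, and the summed dentate granule markers (7 genes, none at 0 in every library) at 4647 and 4566 against 4416 and 4200.1 CPM. The OPC and CA3 lists were thus lower in both old hippocampal libraries, while the OPC list was higher in 1 old library of the caudate putamen. In dentate granule-like nuclei themselves these 7 markers were at 1550 (Maml2), 1210 (Dock10), 1204 (Stxbp6), 844 (Glis3), 563 (Trpc6), 289 (Prox1) and 54.8 CPM (Dsp). The part of granule cell RNA in the sum of oligodendrocyte-like nuclei was not tested, and no conclusion is drawn from the fall of that sum. In the caudate putamen the summed Sst, Npy and Nos1 interneuron markers (4 genes, none at 0 in every library) were at 59.3 and 41.1 against 39.3 and 48.7 CPM, with overlapping ages. The summed eccentric medium spiny neuron markers (5 genes, none at 0 in every library) were at 61.9 and 61.9 against 75.8 and 76.2 CPM there, higher in both old libraries, with 2 of 5 higher in both. The summed astrocyte markers (7 genes, none at 0 in every library) were at 371 and 307 CPM at 3 months and 458 and 523 CPM at 21 months in the caudate putamen, with 4 of 7 higher in both old libraries, and at 419 and 488 against 454 and 334 CPM in the hippocampus. Their part in the result was not tested.

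In other glia the Grik4 estimates were above 0 without passing the test. In astrocyte-like nuclei the log2 change was 0.59 in the hippocampus (SE 0.17, adjusted p = 0.188, edgeR) and 0.49 in the caudate putamen (SE 0.18, adjusted p = 0.296), and the ages did not overlap in either. Hippocampal astrocyte-like nuclei fell into cluster 4, at 48.3 and 65.2 CPM of Grik4 at 3 months and 85.5 and 79.9 CPM at 21 months, and cluster 6, at 137 and 146 against 164 and 162 CPM. Cluster 6 held 7.83% and 12.2% of the class at 3 months and 20.8% and 13.5% at 21 months. The log2 change was 0.60 within cluster 4 (SE 0.14, adjusted p = 0.110, edgeR) and 0.18 within cluster 6 (SE 0.17, adjusted p = 0.879), in comparisons added after the data were seen, and the part of the makeup in the change of the class was not tested. In microglia-like nuclei, where Grik4 is near the free RNA level, it was 0.41 in the hippocampus (SE 0.47, adjusted p = 0.857) and 1.58 in the caudate putamen (SE 0.56, adjusted p = 0.396). In OPC-like nuclei it was 0.15 (SE 0.11, adjusted p = 0.668) and 0.21 (SE 0.11, adjusted p = 0.626). Over the 20 tests of Grik4 in both regions 17 estimates were above 0, of which 2 passed. The tests of a region share its libraries and include microglia-like and endothelial-like nuclei, and no matching count over all genes is given. The age effects of the regions were not told apart for any member in any of the 27 tests of the difference by edgeR (background 0.00174%), and none by DESeq2. An unadjusted p under 0.05 was reached by 3 of the 27 (3041 of 57566 tests over all genes).

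**Figure D3:**
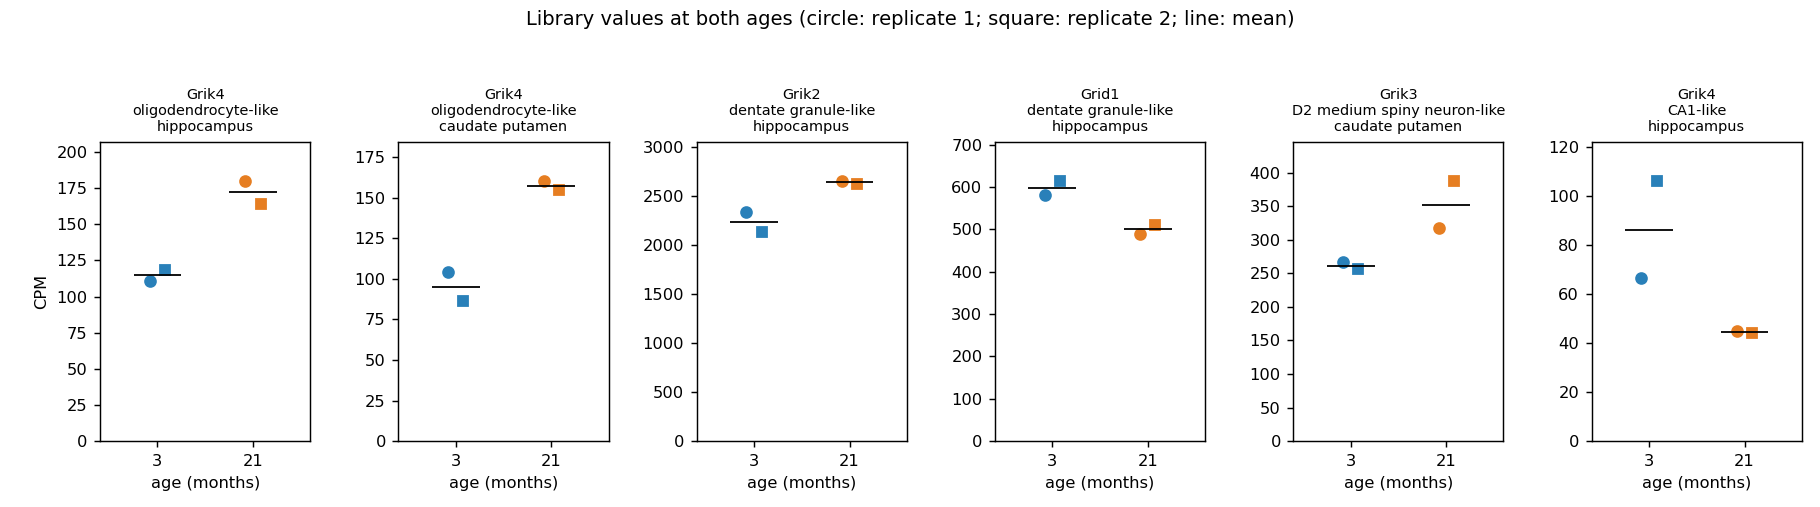
CPM in each library (points, y axis) at 3 and 21 months for member and class pairs described in the text, with the mean of the 2 libraries of an age as a line. Grik4 in oligodendrocyte-like nuclei is higher in both old libraries of both regions, at 155 to 180 CPM against 86.2 to 119 CPM.

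In dentate granule-like nuclei Grik2 was at 2336 and 2128 CPM at 3 months and at 2651 and 2624 CPM at 21 months, a log2 change of 0.29 (SE 0.06, adjusted p = 0.0289, edgeR; 4.37% of all genes passed in this class). Both old libraries were higher. The 4 clusters that make up the class were also tested one by one, after the data were seen, and none kept the Grik2 call. The changes were 0.16, 0.20, 0.16 and 0.24, all above 0 (adjusted p 0.149 to 0.556, unadjusted p 0.00899 to 0.0523, edgeR). The makeup of the class differed with age: the cluster numbered 10, in which Grik2 was at 2516 to 2821 CPM, held 36.2% and 32.9% of the class at 3 months and 70.6% and 68.7% at 21 months. The cluster numbered 13, in which Grik2 was at 1589 to 1932 CPM, held 20.6% and 23.1% against 11.2% and 11.7%. Cluster 12 (2106 to 2392 CPM) held 39.3% and 40.4% against 13.8% and 15.7%. Cluster 11 (3079 to 3631 CPM) held 3.98% and 3.64% against 4.44% and 3.88%. The part of this makeup in the Grik2 change was not tested. The call was also lost without hippocampus 21 months replicate 1 (0.28, adjusted p = 0.303) and without hippocampus 21 months replicate 2 (0.29, adjusted p = 0.209).

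Grid1 in the same nuclei was at 581 and 615 CPM at 3 months and at 489 and 512 CPM at 21 months (log2 change -0.21, SE 0.05, adjusted p = 0.0553, edgeR). Within the clusters the Grid1 changes were -0.08 to 0.10. Grid1 was at 408 to 419 CPM in cluster 10, 476 to 544 in cluster 11, 593 to 658 in cluster 12 and 736 to 820 CPM in cluster 13. The part of the makeup in the Grid1 change of the class was not tested. The log2 change of Grik4 in the whole class was 0.23 (SE 0.08, adjusted p = 0.136, edgeR). In cluster 10 alone Grik4 rose by 0.31 (SE 0.07, adjusted p = 0.0400, edgeR) and Grik3 by 0.30 (SE 0.07, adjusted p = 0.0315), where 444 of 16708 genes passed. Neither passed in the other 3 clusters. In clusters 11, 12 and 13 the changes were 0.48, 0.10 and -0.01 for Grik3 and 0.17, -0.03 and -0.02 for Grik4. The clusters were not tested against each other. Over the whole class the log2 change of Grik3 was -0.02 (SE 0.06, adjusted p = 0.891, edgeR).

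Other differences with age did not pass over a whole class by edgeR without a replicate block. With that block Grik2, Grik3 and Grik4 in D2 medium spiny neuron-like, Grik4 in CA1-like and Grid1 in dentate granule-like nuclei passed, with values given in the last section. Grik3 in D2 medium spiny neuron-like nuclei was higher in both old libraries (318 and 388 against 267 and 257 CPM), with a log2 change of 0.41 (SE 0.10, adjusted p = 0.0601, edgeR, where 4.83% of all genes passed), and DESeq2 called it (adjusted p = 0.00939). In cluster 8 alone, which held 42.4% to 72.2% of the D2 nuclei of a library, Grik3 rose by 0.48 (SE 0.08, adjusted p = 0.00373, edgeR) and Grik2 fell by 0.32 (SE 0.09, adjusted p = 0.0451), in comparisons added after the data were seen in which 1608 of 16098 genes passed. Neither gene passed in the other clusters, with Grik3 at 0.17 (adjusted p = 0.364) in cluster 10 and 0.39 (adjusted p = 0.184) in cluster 7, and Grik2 at -0.32 (adjusted p = 0.112) and -0.22 (adjusted p = 0.418). All 8 tested estimates for Grik3 in the caudate putamen were above 0, at 0.23 to 0.44, and 2 of 7 in the hippocampus were. These 8 come from the same 4 libraries, and no matching count over all genes is given. Over the whole class Grik2 was lower in both old libraries of D2 (-0.32, SE 0.10, adjusted p = 0.121) and D1 medium spiny neuron-like nuclei (-0.26, SE 0.10, adjusted p = 0.235). Grik4 in CA1-like nuclei was at 66.5 and 106 CPM against 45.1 and 44.0 CPM, with a log2 difference of -0.86 (SE 0.22, adjusted p = 0.208), and DESeq2 called it (adjusted p = 0.00234). For Grik5 none of 20 tests had an unadjusted p under 0.05.

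**Figure D4:**
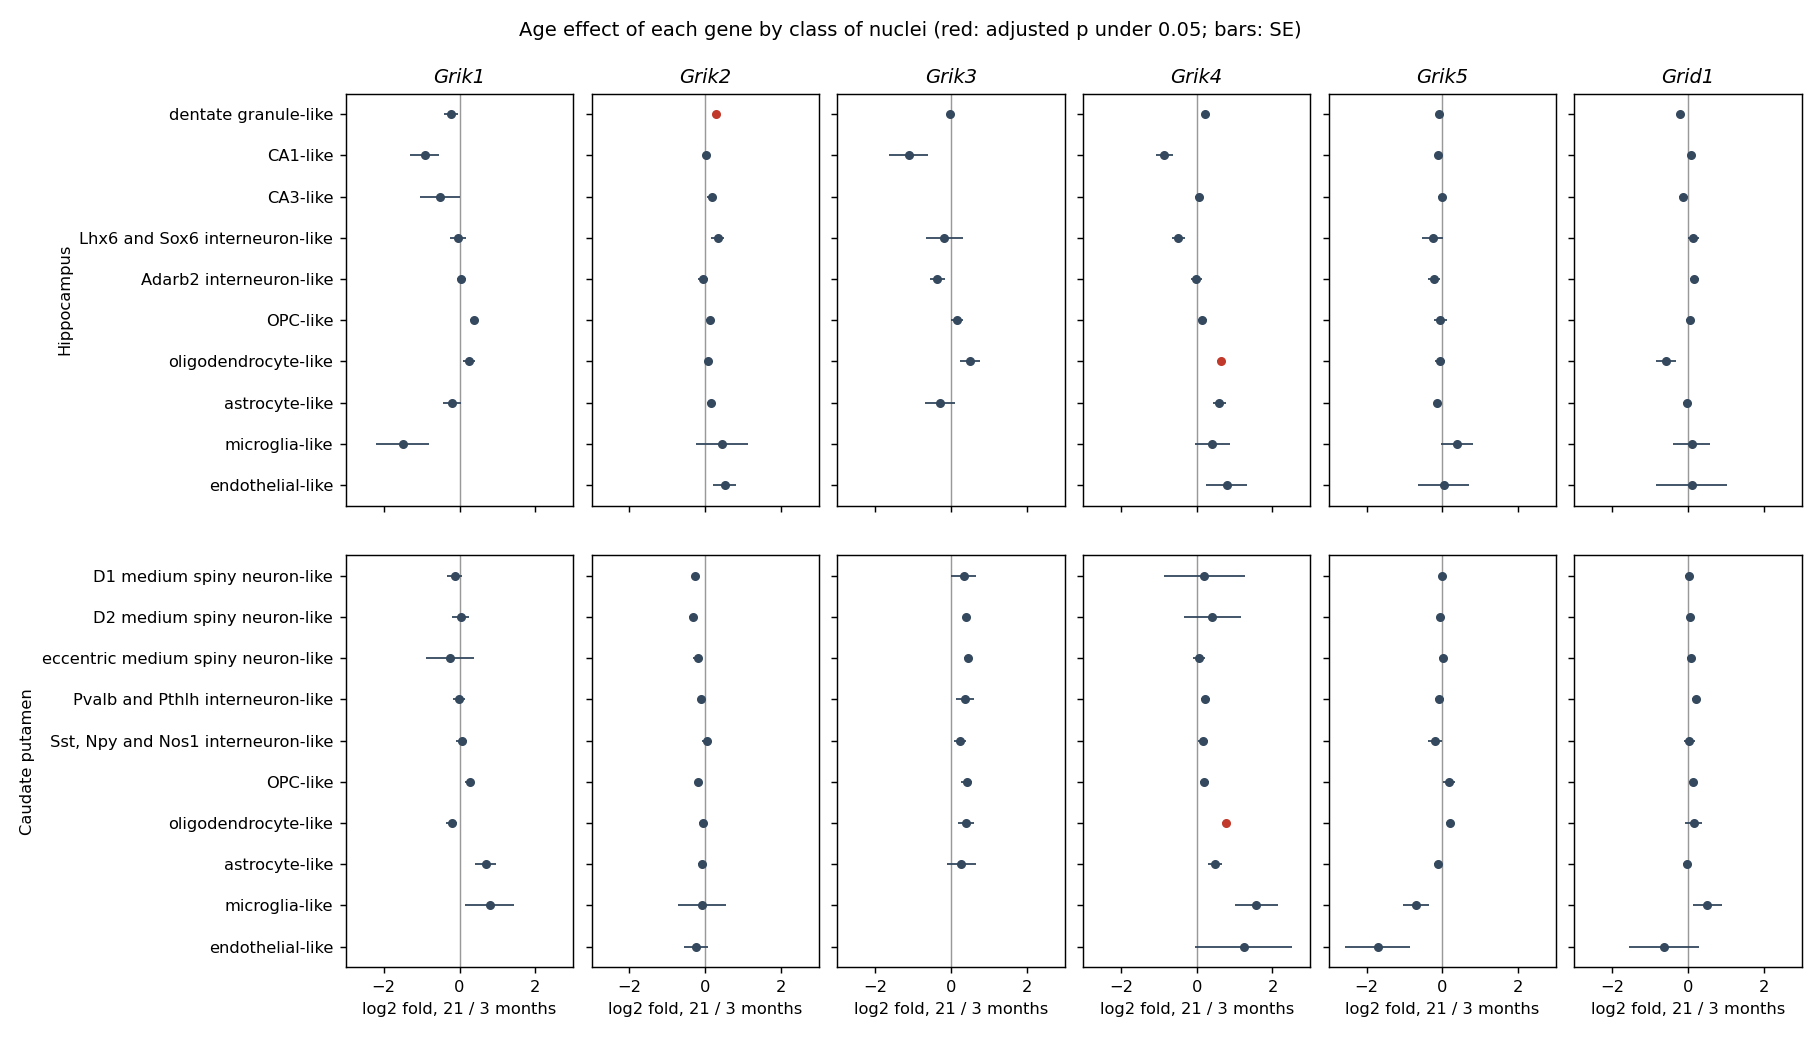
Log2 change from 3 to 21 months for each member in each tested class, with SE bars from the edgeR fit, hippocampus and caudate putamen apart. Called changes are marked, and they are Grik4 in oligodendrocyte-like nuclei of both regions and Grik2 in dentate granule-like nuclei.

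Of the partners 5 of 86 tests passed in hippocampal neuron-like classes (1.46% over all genes) and 1 of 80 in caudate putamen neuron-like classes (1.59%). In hippocampal glia 1 of 80 passed (0.641%) and in caudate putamen glia none of 80 by edgeR (0.592%). There 8 of 80 had an unadjusted p under 0.05, against 5958 of 57566 tests over all genes. Nrxn3 in dentate granule-like nuclei rose from 1678 and 1657 CPM to 3668 and 3309 CPM, a log2 change of 1.11 (SE 0.06, adjusted p = 1.0e-06, edgeR). Grip1, whose product is a scaffold for glutamate receptors, fell by 0.72 in CA1-like nuclei (SE 0.08), by 0.38 in dentate granule-like nuclei (SE 0.06) and by 1.98 in hippocampal astrocyte-like nuclei (103 and 112 against 31.3 and 20.6 CPM, SE 0.23, adjusted p = 0.0186). The makeup of the dentate granule-like class differed with age, as described above for Grik2. Its part in the changes of Nrxn3 and Grip1 in that class was not tested, and their levels in its clusters are not given here. Adarb1 rose by 0.31 in D2 medium spiny neuron-like nuclei (SE 0.06, adjusted p = 0.0378).

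The 5 glial and vascular classes found in both regions allowed a direct comparison of the regions, on all 8 libraries. Of 27 tests 7 passed (3 higher and 4 lower in the caudate putamen), against 11.3% of all genes. Region and the dissection or sorting of each library cannot be told apart. Grid1 in astrocyte-like nuclei had the lowest adjusted p of the 27. It was at 365, 370, 354 and 352 CPM in the hippocampal libraries and at 553, 619, 576 and 560 CPM in those of the caudate putamen, with no overlap and a log2 difference of 0.66 (SE 0.07, adjusted p = 2.5e-05, edgeR). In oligodendrocyte-like nuclei Grid1 was at 36.4 ± 12.1 against 65.5 ± 13.1 CPM (0.84, SE 0.17, adjusted p = 0.0146, edgeR), with overlapping libraries. These Grid1 levels were below those of microglia-like nuclei (45.8 and 74.0 CPM). The thinned shares of oligodendrocyte-like nuclei with a UMI were also below the microglia-like shares (6.67% and 11.9% against 7.11% and 13.6%). Before thinning they were above them (9.96% and 18.1% against 9.64% and 16.6%), so this comparison cannot tell whether these levels are background. In the same oligodendrocyte-like nuclei Neto1 was at 22.6 and 93.4 CPM and Nrxn3 at 210.3 and 776 CPM in the hippocampus and the caudate putamen, and their part in the result was not tested. For Grik2 in astrocyte-like nuclei, at 727 ± 46.3 and 737 ± 60.8 CPM, the log2 difference was 0.00 with an SE of 0.07.

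**Figure D5:**
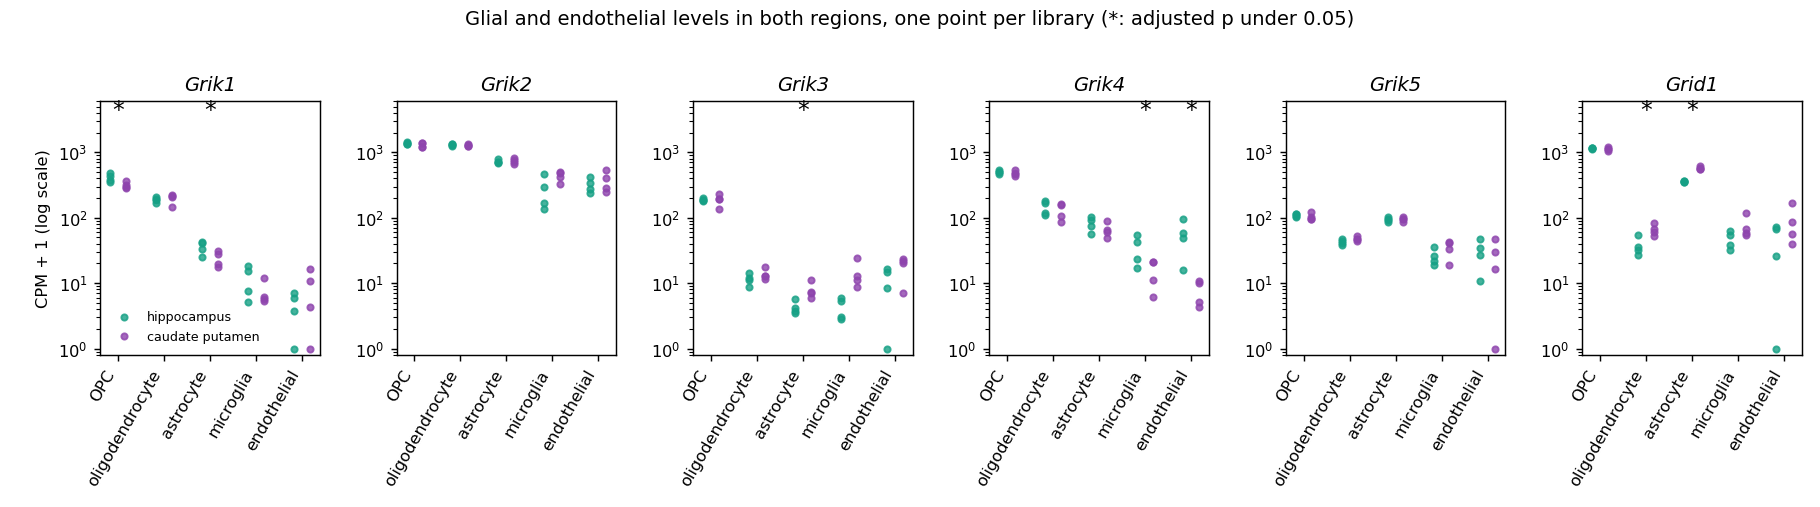
CPM + 1 in each library (points, y axis) of the members in glial classes of the hippocampus and the caudate putamen, on a log axis. Grid1 in astrocyte-like nuclei shows no overlap (352 to 370 against 553 to 619 CPM), and neither do Grik3 in astrocyte-like and microglia-like nuclei and Grik4 in endothelial-like nuclei. Stars mark the 7 differences that passed.

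Grik1 was lower in caudate putamen OPC-like nuclei, with 409 ± 54.2 CPM in the hippocampus and 314 ± 34.1 CPM in the caudate putamen (log2 difference -0.41, SE 0.08, adjusted p = 5.4e-04, edgeR). The libraries of the regions overlapped, and with equal numbers of nuclei the adjusted p was 0.072. Grik1 in astrocyte-like nuclei was at 34.5 ± 8.02 and 22.9 ± 6.22 CPM (-0.63, SE 0.18, adjusted p = 0.0302), and Grik3 there was at 3.31 ± 1.00 and 6.87 ± 2.32 CPM (0.99, SE 0.28, adjusted p = 0.0247). Microglia-like nuclei, used here as the background of free RNA, held 3.29 and 13.2 CPM of Grik3. The thinned shares with a Grik3 UMI were 0.623% and 1.44% in astrocyte-like against 0.612% and 2.49% in microglia-like nuclei. Before thinning they were 1.52% and 3.19% against 0.973% and 3.32%. Grik3 in astrocyte-like nuclei was thus near or below the microglia-like level by CPM, and whether it is background was not tested. Each of these calls was lost in 6 of the 8 fits that left out 1 library. For Grik1 it held only without hippocampus 21 months replicate 1 or 3 months replicate 2, and for Grik3 only without caudate putamen 21 months replicate 1 or hippocampus 3 months replicate 2.

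The calls for Grik4 in endothelial-like and microglia-like nuclei came with other neuronal transcripts. Grik4 in endothelial-like nuclei was at 53.2 ± 32.3 CPM in the hippocampus and 6.56 ± 3.30 CPM in the caudate putamen (-2.89, SE 0.60, adjusted p = 0.00410, edgeR), and in microglia-like nuclei at 33.6 ± 17.4 and 13.8 ± 7.34 CPM (-1.57, SE 0.36, adjusted p = 0.0168). C1ql3, highest in dentate granule-like nuclei, was at 110 ± 82.2 CPM in hippocampal endothelial-like and 139 ± 89.7 CPM in microglia-like nuclei, against 0.765 ± 1.53 and 0.877 ± 0.648 CPM in the caudate putamen. In the same way Neto2, highest in D2 medium spiny neuron-like nuclei, was at 68.8 CPM in microglia-like nuclei of the caudate putamen and 5.66 CPM in those of the hippocampus. The part of such transcripts in the Grik4 differences was not tested. With doublets retained the endothelial-like difference of Grik4 was 0.41 (adjusted p = 0.763), and without hippocampus 3 months replicate 2 it was -2.30 (adjusted p = 0.0512). The microglia-like difference of Grik4 lost its call without caudate putamen 21 months replicate 1, caudate putamen 3 months replicate 2, hippocampus 21 months replicate 2 or hippocampus 3 months replicate 2, at -1.11 to -1.55.

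Over the partners 31 of 80 tests of region passed in these classes (19 higher and 12 lower in the caudate putamen), against 11.3% over all genes. The 5 with the largest log2 difference among those whose libraries did not overlap were C1ql2 in astrocyte-like, oligodendrocyte-like and microglia-like nuclei and C1ql3 in microglia-like and endothelial-like nuclei, all higher in the hippocampus. C1ql2 was at 24.6 ± 14.2 CPM in hippocampal microglia-like nuclei and had no UMI in those of the caudate putamen. It was also at 22.9 ± 12.9 CPM in oligodendrocyte-like and 15.5 ± 9.79 CPM in astrocyte-like nuclei of the hippocampus, and C1ql3 was highest in dentate granule-like nuclei there. Microglia-like nuclei served as the background of free RNA, so these differences are not read as expression by a class. The part of free RNA in them was not tested.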

How the data were processed

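The deposited files hold raw UMI counts per gene and nucleus barcode for each library, made by the authors with Cell Ranger. The file headers name version 6.1.2 for 7 libraries and 7.0.0 for caudate putamen 3 months replicate 2, whereas the submitters' processing notes name 4.0.0 and mm10. Whether intronic reads were counted is not given in the sources used here.

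Of 109826 barcodes, those with fewer than 500 genes (1307) or over 5% mitochondrial counts (3) were removed, then called doublets (2.55% to 15.6% per library), leaving 97740 nuclei. Nuclei were clustered per region with scanpy 1.11.5 (3000 variable genes, 40 components, 20 neighbours, Leiden resolution 1) and named from marker lists, with the naming limits set after class tables had been seen. Unnamed nuclei (4927 and 1596 in the hippocampus and the caudate putamen) were left out. Counts were summed per class and library where each library had at least 20 nuclei and tested with edgeR 4.0.16 (quasi-likelihood, TMM, Benjamini-Hochberg over all genes tested, threshold 0.05), on simulated data first. Age was fitted on the 4 libraries of a region for neurons and on all 8 for glia. Alternatives were DESeq2 1.42.0, size factors, no low-count filter, clustering resolution 0.5, doublets retained, equal nuclei, a replicate block and leaving out each library. Single clusters were added after the data were seen.

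The members and lists were chosen with earlier results of these data known. Named were all members, up to 5 called partners per comparison whose libraries did not overlap, the top class of each partner (some partners are counted but not reported here by name), and the 3 genes most like each member among those reaching 10 CPM. Sequences came from GRCm38 with GENCODE vM21, which matched 99.6% of gene identifiers. Over genes, the replicate deviations (not the levels) of same-numbered libraries correlated at -0.23 to 0.23 in classes of the hippocampus and 0.0226 to 0.63 in those of the caudate putamen.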

Additional observations from a re-analysis of the deposited data

How the results depend on the processing

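For age in hippocampal neurons the count of 1 became 2 with DESeq2, 4 with no filter, 3 with a replicate block and 0 to 4 without 1 library. For age in caudate putamen neurons the count of 0 became 1 with DESeq2, 2 with no filter, 3 with a replicate block and 0 to 1 without 1 library. For age in hippocampal glia the count of 1 became 2 with doublets retained, 3 with no filter and 0 to 1 without 1 library, and in caudate putamen glia 3 with no filter and 0 to 2 without 1 library. The difference of the age effects went from 0 to 2 with no filter. The region count of 7 became 15 with doublets retained, 4 with equal nuclei and 4 to 8 without 1 library. The shares of all genes called under each alternative are not given here. These counts therefore cannot tell whether the members changed apart from other genes. With doublets retained 3 estimates changed sign: Grik5 in caudate putamen astrocyte-like nuclei against the other classes (-0.011, adjusted p = 0.934, edgeR), Grik3 in caudate putamen endothelial-like nuclei against the other classes (0.20, adjusted p = 0.674) and Grik4 between regions in endothelial-like nuclei (0.41, adjusted p = 0.763); the cause was not tested. That clustering gave no Adarb2 interneuron-like class. Nothing in the labels says what a replicate number stands for, while deviations of same-numbered caudate putamen libraries correlated at 0.63 in D1 and 0.51 in D2 medium spiny neuron-like nuclei. The replicate block lost none of the calls it was run on and added Grik2 (-0.32, adjusted p = 0.0113, edgeR), Grik3 (0.40, adjusted p = 4.8e-04) and Grik4 (0.44, adjusted p = 0.0247) in D2 medium spiny neuron-like, Grik4 in CA1-like (-0.81, adjusted p = 0.0146) and Grid1 in dentate granule-like nuclei (-0.21, adjusted p = 0.0133). Rare classes limit depth, with 31 endothelial-like nuclei in the smallest hippocampal library.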
